A study of Rattus norvegicus with 16 samples.

Results

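Rat genes of the major histocompatibility complex (MHC, named RT1 in the rat) and of antigen presentation were followed in the left ventricle of spontaneously hypertensive (SH) and Wistar Kyoto (WKY) rats that had inhaled diesel exhaust (DE) or clean air. The members were 10 genes, taken with all of their probe sets by gene symbol in the platform annotation: RT1-CE16, RT1-Ba, RT1-Bb, RT1-Da, RT1-Db1, B2m, Tap1, Tap2, Cd74 and Ciita. All 10 were on the Affymetrix Rat 230A array, with 15 probe sets among the 15866 tested, and B2m, RT1-Ba, RT1-Bb, RT1-Db1 and Tap1 had 2 each. The samples were 16 arrays, 1 per rat, with 4 male rats of 12–14 weeks in each of the SH-DE, SH-air, WKY-DE and WKY-air groups. The SH rat is the strain with inherited high blood pressure and the WKY rat is its normotensive reference strain. The DE groups breathed diesel exhaust, gases included, with particles at 2.0 mg/m3, by whole-body exposure on 5 days/week for 4 weeks. The air groups were held in the same way in filtered air. The sample records give 6 hr/day, and the study's methods give a shorter daily exposure. The left ventricle piece is a mixture of all cells of the tissue, so that fewer presenting cells and less RNA per cell cannot be told apart.

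Cells show peptides to T cells on 2 kinds of MHC molecule. Class I molecules (in the rat RT1-A and the RT1-C/E genes such as RT1-CE16) carry peptides from the cytosol, which the Tap1–Tap2 transporter pumps into the endoplasmic reticulum, and they reach the surface only with the light chain B2m. Class II molecules pair an α with a β chain (RT1-Ba with RT1-Bb, and RT1-Da with RT1-Db1), travel with the invariant chain Cd74 and are made mainly by dendritic cells, macrophages and B cells, under the coactivator Ciita. In a heart the class II genes therefore report largely on resident immune cells, whereas class I genes are expressed by nearly all cells. RT1 is among the most variable regions of the rat genome, and the number of class I genes differs between haplotypes. A probe designed on the allele of 1 strain can bind the allele of another strain less well. Strain differences in RNA level and in the sequence under the probes therefore cannot be told apart for the RT1 probe sets, since probe sequences were not compared with either strain.

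The promoters of the 4 class II chain genes, of RT1-CE16 and of B2m are shown because class II genes are known for a shared arrangement of the X box (bound by RFX), the X2 box (bound by CREB family proteins) and the Y box (bound by NF-Y), to which Ciita is recruited, and class I and B2m promoters hold a like module. They come from RefSeq on the GRCr8 rat assembly, which is of neither strain, and run from 250 bases before to 50 bases after the annotated start of the gene. Of the 10 members, 9 matched the promoter table, and Ciita was not among them. Capitals mark GCAAC (a core of the X box), TGACG (a core of the X2 box) and GATTGG (the Y box) on either strand, read 5′ to 3′ along the gene. The intervals are chr20:4515165-4515464 (+) for RT1-Da, chr20:4560113-4560412 (−) for RT1-Db1, chr20:4576807-4577106 (+) for RT1-Ba, chr20:4604069-4604368 (−) for RT1-Bb, chr20:3265394-3265693 (−) for RT1-CE16 and chr3:129549080-129549379 (+) for B2m.
RT1-Da: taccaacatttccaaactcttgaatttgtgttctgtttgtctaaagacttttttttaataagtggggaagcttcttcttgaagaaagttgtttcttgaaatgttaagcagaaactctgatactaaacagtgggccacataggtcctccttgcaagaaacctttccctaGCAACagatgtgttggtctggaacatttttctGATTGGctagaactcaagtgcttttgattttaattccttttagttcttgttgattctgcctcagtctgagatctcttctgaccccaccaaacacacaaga
RT1-Db1: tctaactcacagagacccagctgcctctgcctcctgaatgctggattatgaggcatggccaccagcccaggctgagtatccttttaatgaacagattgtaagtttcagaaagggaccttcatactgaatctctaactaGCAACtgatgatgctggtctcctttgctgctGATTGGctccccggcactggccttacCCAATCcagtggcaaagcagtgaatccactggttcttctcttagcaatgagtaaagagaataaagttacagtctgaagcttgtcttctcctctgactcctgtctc
RT1-Ba: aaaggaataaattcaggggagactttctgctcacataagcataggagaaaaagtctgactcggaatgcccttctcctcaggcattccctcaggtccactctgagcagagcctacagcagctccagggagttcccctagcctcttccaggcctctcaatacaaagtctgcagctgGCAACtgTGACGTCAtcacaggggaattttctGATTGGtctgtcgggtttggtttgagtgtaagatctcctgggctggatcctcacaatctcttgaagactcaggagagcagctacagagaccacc
RT1-Bb: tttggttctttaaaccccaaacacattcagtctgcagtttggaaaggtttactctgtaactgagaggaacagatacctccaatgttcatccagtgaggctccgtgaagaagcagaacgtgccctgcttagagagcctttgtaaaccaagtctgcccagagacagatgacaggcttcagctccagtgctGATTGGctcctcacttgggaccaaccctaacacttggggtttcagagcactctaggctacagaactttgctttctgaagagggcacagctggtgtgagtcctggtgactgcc
RT1-CE16: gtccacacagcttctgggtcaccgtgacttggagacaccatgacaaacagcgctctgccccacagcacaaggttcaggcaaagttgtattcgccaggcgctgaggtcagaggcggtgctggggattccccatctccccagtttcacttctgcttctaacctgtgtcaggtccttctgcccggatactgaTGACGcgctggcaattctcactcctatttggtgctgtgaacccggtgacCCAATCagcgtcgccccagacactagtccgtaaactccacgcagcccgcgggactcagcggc
B2m: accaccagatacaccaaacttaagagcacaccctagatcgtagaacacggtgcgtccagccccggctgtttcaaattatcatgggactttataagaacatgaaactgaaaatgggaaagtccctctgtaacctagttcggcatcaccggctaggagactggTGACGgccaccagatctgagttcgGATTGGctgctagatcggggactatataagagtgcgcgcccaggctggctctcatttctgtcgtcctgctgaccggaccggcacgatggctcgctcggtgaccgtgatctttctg

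GATTGG was found in all 6 printed promoters, and 14.8% of the 33469 promoters in the table hold it. It began 50 bases before the start of RT1-Da, 81 before RT1-Db1, 44 before RT1-Ba, 62 before RT1-Bb and 65 before B2m, and in RT1-CE16 it lay on the other strand, 12 bases before the start. RT1-Db1 held a further copy on the other strand. GCAAC, which 35.1% of all promoters hold, stood upstream of GATTGG in RT1-Da, RT1-Db1 and RT1-Ba, with 32, 31 and 32 bases between the first letters of the motifs. This order at 31 or 32 bases occurred in 9 of the 33469 promoters (0.0269%). These were the 3 members from which the spacing was taken, RT1-DOa and RT1-Ha, which are also RT1 genes of chromosome 20, and Cyp2a1, Dcdc2b, St8sia4 and Zswim1. RT1-Bb, the β chain partner of RT1-Ba, held GATTGG as its only exact match. TGACG, held by 21.2% of all promoters, stood between both motifs in RT1-Ba, where matches on the 2 strands overlap, and it began 24 bases upstream of GATTGG in B2m. In RT1-CE16 it began 61 bases before the start. The promoters of Cd74 and Tap2 held GCAAC only, and that of Tap1 held none of these letters. These are exact letter matches in the reference sequence. Variant forms of the motifs were not searched for, so a promoter without a match may still hold a box. No measurement of binding was made.

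The arrays had been scaled alike by trimmed mean, and correlations between arrays of 1 group lay between 0.949 and 0.968. Median signals were nevertheless 209 to 216 in WKY-DE, against 178 to 192 in WKY-air, 173 to 197 in SH-air and 185 to 194 in SH-DE. Array SH-DE replicate 3 stood apart from the other SH rats. Over 71 probe sets outside the members that separated SH-air and WKY-air by at least 1.5 on the log2 scale without overlap, each array was placed, by its signals, on a scale with the WKY-air mean at 0 and the SH-air mean at 1. The median place was 0.966, 0.979, 0.529 and 0.991 for SH-DE replicates 1 to 4, against 0.285, 0.338, 0.165 and 0.38 for WKY-DE replicates 1 to 4. Over the 48 of them placed on chromosomes other than 20, SH-DE replicate 3 lay at 0.538, and over the 5 on chromosome 20 at 0.766. On the 5 member probe sets called between SH-air and WKY-air it lay from 0.149 (RT1-Ba 1370822_at) to 0.680 (B2m 1367595_s_at). The 26 probe sets higher in SH-air and the 45 lower in SH-air placed the WKY-DE arrays differently. On the 26, SH-DE replicate 3 lay at 0.531 and the WKY-DE arrays at 0.056 to 0.0861. On the 45, SH-DE replicate 3 lay at 0.523 and the WKY-DE arrays at 0.408, 0.616, 0.3 and 0.622, so that WKY-DE replicates 2 and 4 lay beyond it. Whether the RNA of SH-DE replicate 3 came from SH tissue alone was not tested, and this doubt bears on every SH-DE value that includes it. Its labels are those of the other SH-DE arrays, and strain differences under DE are given with and without it for the 5 member probe sets that it moved most. No call changed on the other 10. WKY-DE replicate 4 had a high RT1-Ba and a low B2m signal within its group, as given below. Among marker genes, 6 of 8 fibroblast and 3 of 4 atrial probe sets were lower in SH-air than in WKY-air. Over all probe sets 1.79% were called lower. The 4 atrial probe sets had a median log2 change of −4.89. Atrial marker sums were 11863 to 23519 in SH-air and 31842 to 94242 in WKY-air. They were 12676, 18670, 33226 and 12864 for SH-DE replicates 1 to 4, and 11551 to 41724 in WKY-DE. The part of atrial tissue in the strain differences and in the place of SH-DE replicate 3 was not tested.

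**Figure D1:**
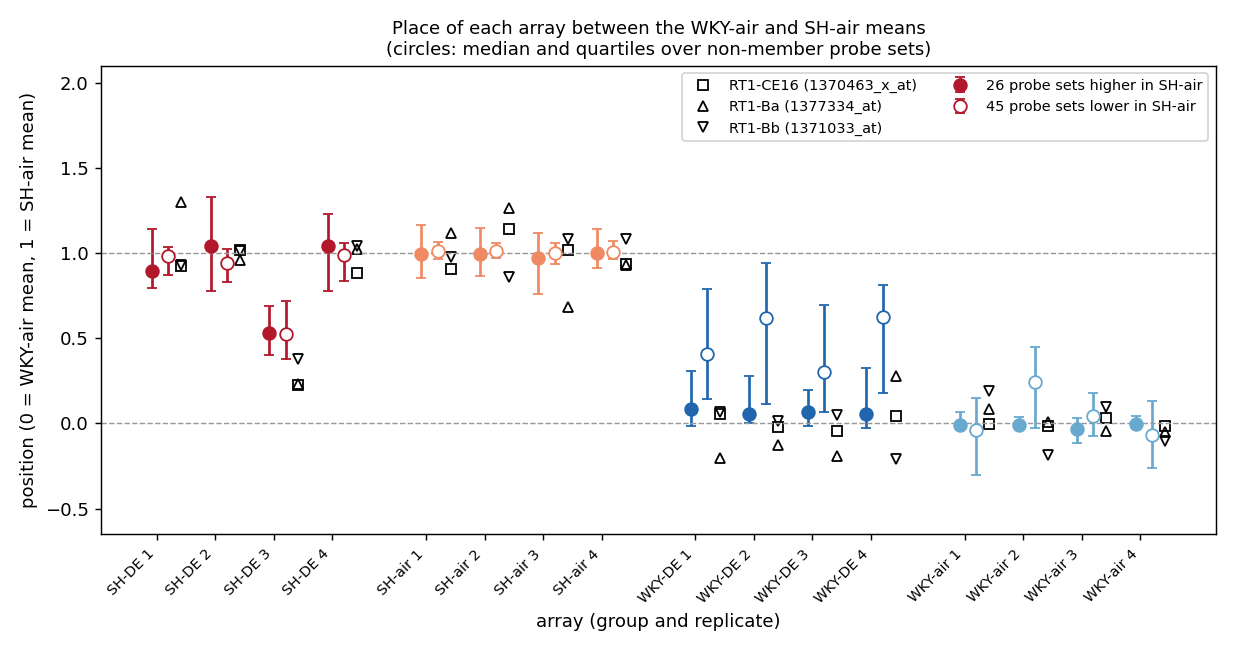
Place of each of the 16 arrays between the WKY-air mean (0) and the SH-air mean (1), by group and replicate. Filled and open circles with bars are the medians and quartiles of 26 probe sets outside the members that were higher and 45 that were lower in SH-air, and the small black symbols are 3 member probe sets. SH-DE replicate 3 lies near the middle on both circles and at 0.228, 0.233 and 0.378 on RT1-CE16, RT1-Ba and RT1-Bb, while the WKY-DE arrays lie near 0 on the filled circles and higher on the open ones.

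Of the 15 member probe sets, 5 differed between SH-air and WKY-air, 2 higher and 3 lower in SH-air, where a call means that limma gave an adjusted p under 0.05 from an unadjusted p under 0.01. Over all probe sets 3.15% were called in this comparison, 1.36% higher and 1.79% lower. The 5 probe sets belong to 4 genes, RT1-CE16, RT1-Ba, RT1-Bb and B2m. In SH-DE against WKY-DE, which shares no array with the first comparison, 2 member probe sets were higher and 0 lower. Over all probe sets 0.813% were called there, 0.46% higher and 0.353% lower. Without SH-DE replicate 3, 3 member probe sets were called, RT1-Bb being added as lower, against 1.34% of all. The median log2 change of the 15 probe sets was 0.01 in SH-air against WKY-air and −0.29 in SH-DE against WKY-DE, beside 0.02 and −0.09 over all probe sets. The members lay on both sides of 0, and the 2 probe sets of RT1-Ba passed the test in opposite directions. Where groups are said not to overlap, this only describes their 4 arrays each. How many of all probe sets also do not overlap was not counted, so whether this is unusual for the members is not known. Another measure is the unadjusted p of limma. It was under 0.05 for 2783 of 15866 in SH-air against WKY-air. The numbers were 2106 in SH-DE against WKY-DE and 3245 in WKY-DE against WKY-air.

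**Figure D2:**
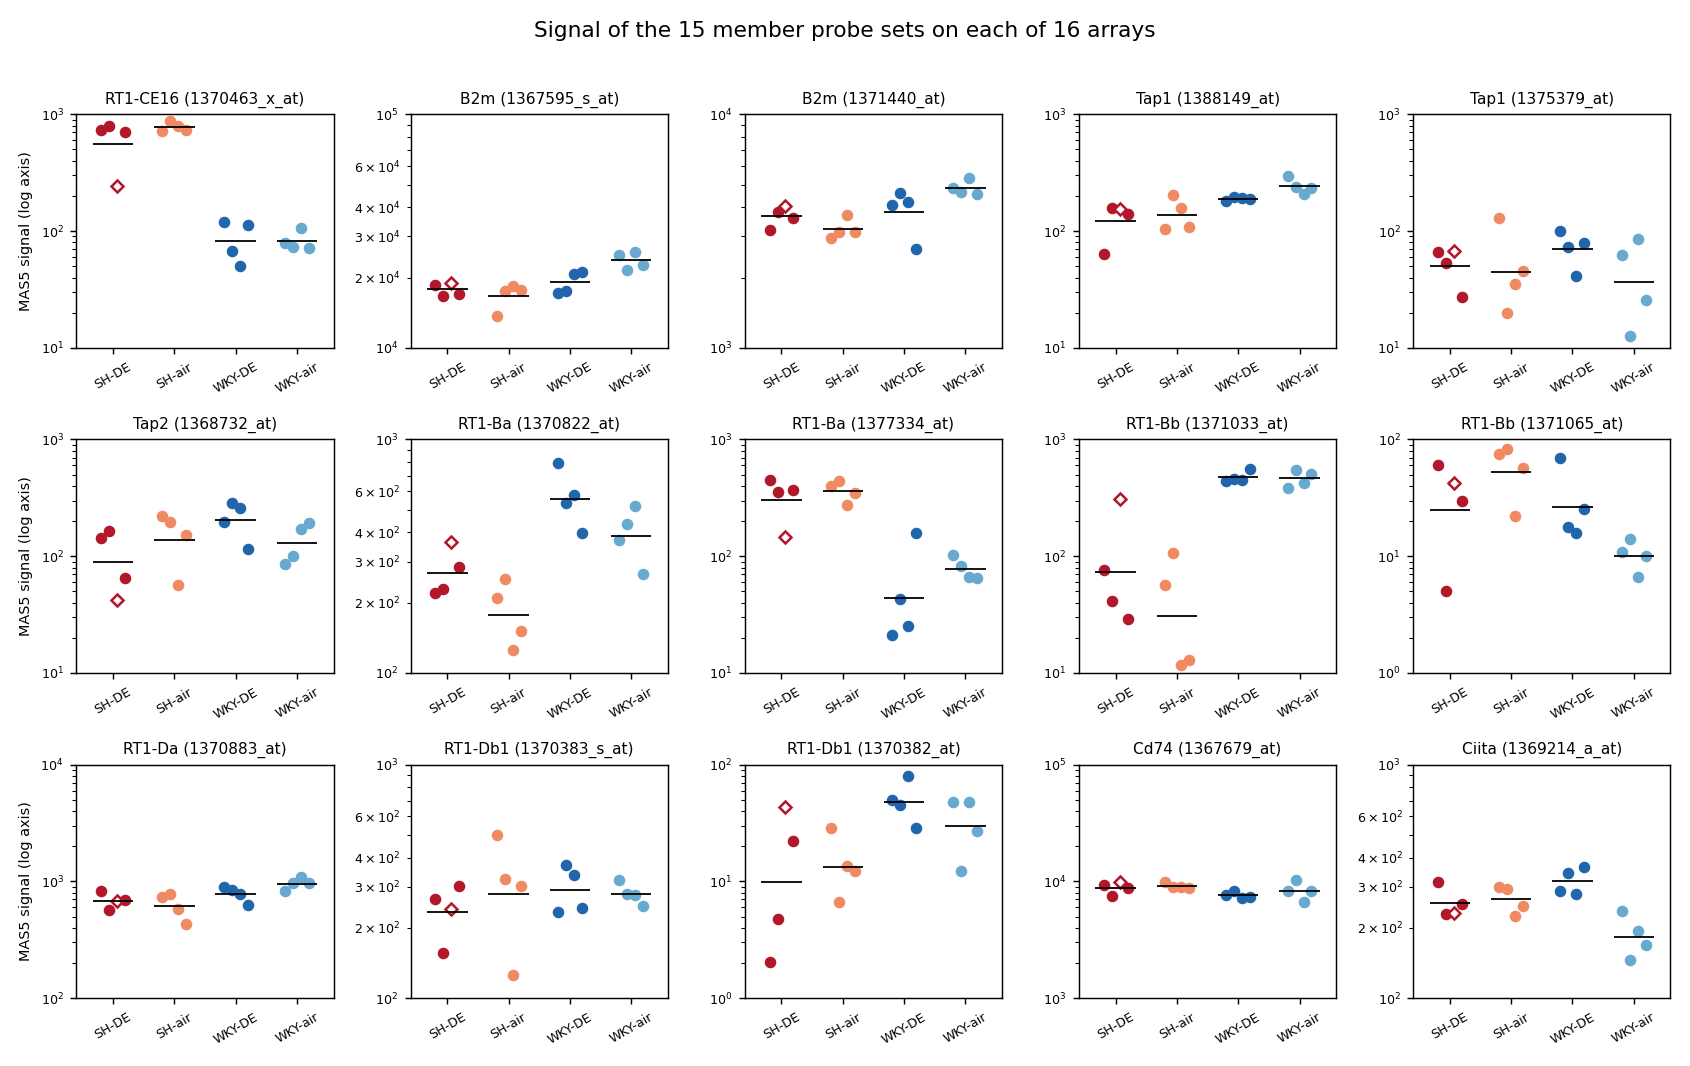
MAS5 signal (log axis) of the 15 member probe sets on each array, by group, with the geometric mean as a line. SH-DE replicate 3 is drawn as an open diamond. RT1-CE16 and RT1-Bb (1371033_at) separate SH from WKY arrays in opposite directions in both exposures.

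RT1-CE16, a class I heavy chain gene of the RT1-C/E region, had the largest rise in SH rats among the members. Its probe set (1370463_x_at, where the suffix _x_at marks probes that can bind related sequences) had signals of 716, 884, 796 and 737 in SH-air, against 79.3, 73.1, 106 and 72.1 in WKY-air. Under DE it had 732, 797, 243 and 702 in SH-DE, against 120, 67.4, 50.3 and 113 in WKY-DE. The strains did not overlap in either exposure, and SH-DE replicate 3 had the lowest signal of all SH arrays. The log2 change was 3.02 in air (SE 0.32, limma adjusted p = 1.52e-04) and 2.54 under DE (SE 0.32, limma adjusted p = 0.00125). Without SH-DE replicate 3 the value under DE was 2.93 (SE 0.22, limma adjusted p = 6.59e-06).

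The call of RT1-CE16 in air held under all 26 alternatives run, and that under DE was lost only in the fit of the SH-DE and WKY-DE arrays alone (adjusted p = 0.0538). Exposure did not separate its signal in either strain, with a log2 change of −0.46 in SH-DE against SH-air (SE 0.32, limma adjusted p = 0.879) and 0.02 in WKY-DE against WKY-air (SE 0.32, limma adjusted p = 0.979). Without SH-DE replicate 3 the value in SH rats was −0.07.

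RT1-CE5, another class I gene of this region and not a member, ran the other way on 4 of its 5 probe sets. Probe set 1371209_at averaged 4.11 ± 4.22 in SH-air and 251 ± 37.6 in WKY-air (SD, n = 4 each), a log2 change of −3.73 (SE 0.38, limma adjusted p = 1.10e-04). Probe set 1388255_x_at averaged 9.17 ± 8.45 in SH-air, against 303 ± 75.1 in WKY-air, a log2 change of −3.68 (SE 0.37, limma adjusted p = 8.79e-05). The SH-air means lie below the offset of 16.1 that was added before taking logarithms, so these fold changes depend on that offset. Under DE 1371209_at averaged 20.8 ± 33.2 in SH-DE, where replicate 3 had the highest signal of 70.5, and 175 ± 41.9 in WKY-DE (log2 change −2.68, SE 0.38, limma adjusted p = 0.00278), and without replicate 3 the value was −3.21 (SE 0.20, limma adjusted p = 8.59e-07). Over the 29 probe sets annotated to a single RT1 gene, 3 were higher and 7 lower in SH-air than in WKY-air. Over all probe sets 1.36% were higher and 1.79% lower. The 29 include called probe sets of the members, of RT1-CE5 and of RT1-N2, which was lower (1387839_at, log2 change −2.08, limma adjusted p = 0.0274). Of 4 probe sets annotated to several genes, RT1 genes among them, 1 was called in each exposure. This was 1371078_at, annotated to 5 genes. It was lower in SH rats in air (log2 change −1.24, limma adjusted p = 7.15e-04) and under DE (−0.99, limma adjusted p = 0.00565).

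B2m, the light chain shared by class I molecules, was lower in SH rats in air. Probe set 1367595_s_at had signals of 13663, 17521, 18400 and 17601 in SH-air, against 24966, 21625, 25741 and 22698 in WKY-air. The groups did not overlap, and the log2 change was −0.51 (SE 0.12, limma adjusted p = 0.0376). Probe set 1371440_at had 2958, 3136, 3701 and 3132 in SH-air, against 4826, 4631, 5325 and 4547 in WKY-air, likewise without overlap, but did not pass the test (log2 change −0.58, SE 0.16, limma adjusted p = 0.0593). It passed under 6 of 26 alternatives, among them that without WKY-DE replicate 4 (limma adjusted p = 0.0172). At 2651 this array lay below the 4080, 4601 and 4201 of the other WKY-DE arrays. It enters the air comparison only through the pooled variance. The call of B2m (1367595_s_at) was lost, 1 array at a time, without SH-DE replicate 1, SH-air replicates 1, 2 or 4, or WKY-air replicates 1, 3 or 4 (adjusted p = 0.052, 0.101, 0.0708, 0.0734, 0.0866, 0.0949 and 0.0737, in that order). It was also lost with quantile normalization (adjusted p = 0.0838), with the SH-air and WKY-air arrays alone (adjusted p = 0.132) and with a replicate block (adjusted p = 0.0606). Its log2 change stayed between −0.55 and −0.39 under all alternatives run.

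Under DE the strains overlapped on B2m. Probe set 1367595_s_at had 18629, 16668, 19026 and 16963 in SH-DE, against 17236, 17491, 20759 and 21072 in WKY-DE (log2 change −0.10, SE 0.12, limma adjusted p = 0.775). In WKY-DE against WKY-air both probe sets of B2m had negative values that did not pass the test, −0.31 (SE 0.12, limma adjusted p = 0.169) and −0.34 (SE 0.16, limma adjusted p = 0.233), although WKY-DE and WKY-air did not overlap on 1367595_s_at. In SH-DE against SH-air the values were 0.09 (SE 0.12) and 0.18 (SE 0.16). The strain by exposure interaction, which tests whether the DE effect differs between strains, gave 0.41 (SE 0.17, limma adjusted p = 0.363) and 0.52 (SE 0.22, limma adjusted p = 0.358). The part of any cell type in the B2m values was not tested. Fibroblast marker sums were 15714 to 19415 in SH-air, against 24092 to 33023 in WKY-air, and 18481 to 21017 in SH-DE, against 18600 to 24903 in WKY-DE. Ventricular cardiomyocyte sums were 198385 to 214715 in SH-air, against 221958 to 295580 in WKY-air, and overlapped under DE. Atrial sums, given above, were also lower in SH-air. Those of macrophages and dendritic cells, lymphocytes and endothelium overlapped between SH-air and WKY-air.

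Tap1 and Tap2, the subunits of the peptide transporter, passed no test. Tap1 (1388149_at) had signals of 103, 205, 158 and 108 in SH-air, against 299, 241, 209 and 233 in WKY-air, without overlap (log2 change −0.75, SE 0.24, limma adjusted p = 0.117). It had 63.7, 159, 154 and 139 in SH-DE, against 182, 197, 194 and 187 in WKY-DE, again without overlap (log2 change −0.57, SE 0.24, limma adjusted p = 0.329). The value of Tap1 in air passed the test under 1 of 26 alternatives, without SH-DE replicate 1, the array at 63.7 (limma adjusted p = 0.0415). That array enters the air comparison only through the pooled variance. The dimmer probe set of Tap1 (1375379_at) ranged over 19.7 to 130 in SH-air, against 12.7 to 86.0 in WKY-air. Tap2 had 142, 166, 42.6 and 65.6 in SH-DE, against 196, 288, 258 and 116 in WKY-DE, and its log2 change of −1.02 (SE 0.43, limma adjusted p = 0.328) was −0.73 without SH-DE replicate 3.

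RT1-Ba, the α chain of the RT1-B class II molecule, gave opposite strain differences on its 2 probe sets. Probe set 1377334_at was higher in SH rats, with 399, 440, 275 and 345 in SH-air, against 103, 82.0, 66.1 and 65.2 in WKY-air (log2 change 2.00, SE 0.42, limma adjusted p = 0.0191). Probe set 1370822_at was lower in SH rats, with 209, 254, 125 and 151 in SH-air, against 371, 434, 518 and 265 in WKY-air (log2 change −1.05, SE 0.26, limma adjusted p = 0.0397). Neither pair of groups overlapped. Across the 16 arrays the deviations of the 2 probe sets from their group means correlated at r = −0.443, and at −0.32 without SH-DE replicate 3 or −0.219 without WKY-DE replicate 4, a description of arrays that share scaling.

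Under DE probe set 1377334_at of RT1-Ba had 450, 353, 146 and 372 in SH-DE, against 21.2, 43.3, 25 and 159 in WKY-DE. SH-DE replicate 3 and WKY-DE replicate 4 were thus nearly equal, while the other arrays of these groups lay far apart. The log2 change was 2.35 (SE 0.42, limma adjusted p = 0.0138), and 2.68 without SH-DE replicate 3 (SE 0.40, limma adjusted p = 0.00419). Probe set 1370822_at had 220, 229, 365 and 285 in SH-DE, against 791, 535, 576 and 398 in WKY-DE, without overlap (log2 change −1.01, SE 0.26, limma adjusted p = 0.0919). It passed the test without both SH-DE replicate 3 and WKY-DE replicate 4 (log2 change −1.31, adjusted p = 0.0454).

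The calls of RT1-Ba lay near the threshold, while the sizes changed less. In air the log2 change stayed between 1.58 and 2.19 on 1377334_at and between −1.22 and −0.89 on 1370822_at under all alternatives run, and under DE that of 1377334_at lay between 1.70 and 3.17. The call of 1377334_at in air was lost without SH-air replicate 1, SH-air replicate 2 or WKY-air replicate 4 (adjusted p = 0.052, 0.0561 and 0.0564), and under DE without SH-DE replicate 1, SH-DE replicate 2, WKY-DE replicate 1 or WKY-DE replicate 3 (adjusted p = 0.0548, 0.0544, 0.0541 and 0.0501) or with the SH-DE and WKY-DE arrays alone (adjusted p = 0.145). That of 1370822_at in air was lost without any 1 of SH-DE replicate 4, SH-air replicates 1, 3 and 4, WKY-DE replicates 2 and 3 and WKY-air replicates 1, 2 and 3, with adjusted p between 0.0508 and 0.107. It was also lost with array weights (adjusted p = 0.0517), with the SH-air and WKY-air arrays alone (adjusted p = 0.106) and with a replicate block (adjusted p = 0.0606). The direction of both probe sets was the same under every alternative run in both strain comparisons.

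RT1-Bb, the β chain that pairs with RT1-Ba, had the largest fall in SH rats among the members. Probe set 1371033_at had signals of 56.4, 106, 11.7 and 12.8 in SH-air, against 387, 547, 427 and 511 in WKY-air (log2 change −3.21, SE 0.54, limma adjusted p = 0.00555). It had 76.3, 41.3, 309 and 29.0 in SH-DE, against 440, 462, 447 and 557 in WKY-DE. The strains did not overlap in either exposure, and SH-DE replicate 3 was the highest of all SH arrays. The value under DE did not pass the test with all arrays (log2 change −2.38, SE 0.54, limma adjusted p = 0.0567) and passed without SH-DE replicate 3 (−2.98, SE 0.43, limma adjusted p = 0.00262) or without SH-air replicate 2, which only enters the pooled variance (adjusted p = 0.0407).

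The other probe set of RT1-Bb (1371065_at) was dim and pointed the other way in air, with 75.7, 82.3, 22.3 and 57.4 in SH-air, against 11, 14, 6.70 and 10.1 in WKY-air. The groups did not overlap, and the value did not pass the test (log2 change 1.43, SE 0.40, limma adjusted p = 0.0664). It passed under 4 of 25 alternatives, among them without SH-DE replicate 2, SH-air replicate 3 or WKY-DE replicate 1 (limma adjusted p = 0.0358, 0.0343 and 0.048). The DE arrays enter the air comparison only through the pooled variance. Under DE the same probe set of RT1-Bb had 59.9, 5.05, 42.8 and 29.8 in SH-DE, against 69.9, 17.9, 15.8 and 25.2 in WKY-DE, and the groups overlapped (log2 change 0.04, SE 0.40, limma adjusted p = 0.973). Every WKY-DE array lay above every WKY-air array on it, with a log2 change of 0.75 that did not pass the test (SE 0.40, limma adjusted p = 0.303).

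RT1-Da, the α chain of the RT1-D class II molecule, had 739, 780, 584 and 429 in SH-air, against 827, 960, 1082 and 969 in WKY-air. The groups did not overlap, and the log2 change of −0.62 did not pass the test (SE 0.18, limma adjusted p = 0.0864). Under DE RT1-Da had 828, 565, 678 and 687 in SH-DE, against 900, 849, 787 and 633 in WKY-DE, with overlap (log2 change −0.20, SE 0.18, limma adjusted p = 0.69). Its partner RT1-Db1 passed no test on either probe set. Probe set 1370383_s_at of RT1-Db1 had 126 to 502 in SH-air, against 248 to 322 in WKY-air, and 1370382_at, with all signals under 80, had 2.03, 4.73, 43.3 and 22.2 in SH-DE, against 49.6, 45.5, 79.7 and 28.9 in WKY-DE (log2 change −1.09, SE 0.38, limma adjusted p = 0.224). Without SH-DE replicate 3 that value was −1.41 (SE 0.35, limma adjusted p = 0.0742).

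Cd74, the invariant chain that escorts class II molecules, was bright and nearly level across the groups. It had 9268, 7467, 9963 and 8841 in SH-DE, 9890, 8928, 9021 and 8742 in SH-air, 7586, 8333, 7154 and 7410 in WKY-DE and 8252, 10204, 6621 and 8356 in WKY-air. The log2 change of Cd74 was 0.14 in SH-air against WKY-air (SE 0.13, limma adjusted p = 0.619) and 0.22 in SH-DE against WKY-DE (SE 0.13, limma adjusted p = 0.517). Its SE was among the smallest of the member probe sets, and the strain differences of 1 or more on the log2 scale seen on probe sets of RT1-Ba and RT1-Bb had no counterpart on Cd74.

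**Figure D3:**
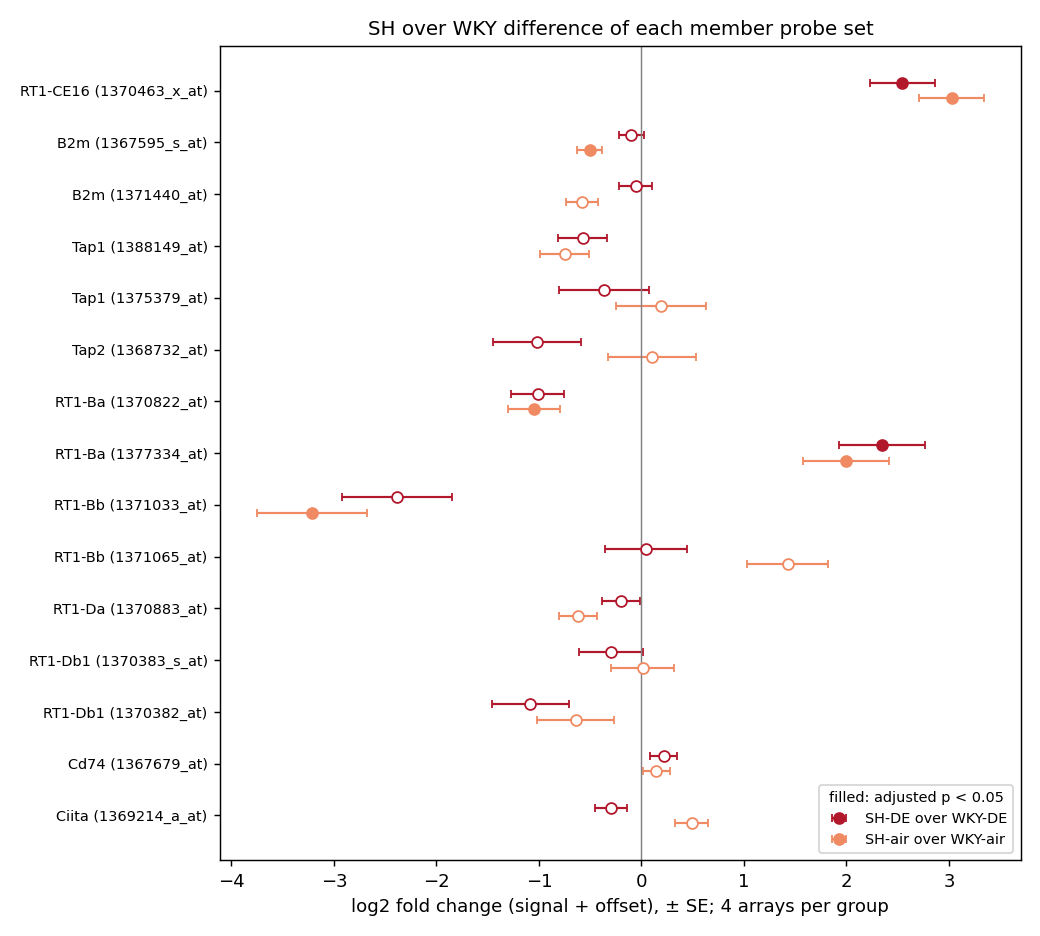
Log2 change of SH over WKY (± SE, 4 arrays per group) for each member probe set, under DE and in air, with filled points for an adjusted p under 0.05. RT1-CE16 and RT1-Ba (1377334_at) lie above 0 in both exposures, and RT1-Bb (1371033_at) and RT1-Ba (1370822_at) below 0 in both.

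Ciita, the coactivator that switches on class II genes, was the single member called for DE, and only in WKY rats. It had signals of 287, 342, 281 and 365 in WKY-DE, against 236, 145, 194 and 170 in WKY-air. Every WKY-DE array lay above every WKY-air array, and the log2 change was 0.74 (SE 0.16, limma adjusted p = 0.0364), while 1.88% of all probe sets were called in this comparison. The median log2 change over all probe sets was 0.10 here. In SH rats Ciita had 316, 229, 230 and 252 in SH-DE, against 300, 295, 225 and 247 in SH-air (log2 change −0.05, SE 0.16, limma adjusted p = 0.987). The difference between the strains in DE effect was −0.79 (SE 0.23) and did not pass the test of the interaction (limma adjusted p = 0.226). SH-air Ciita lay 0.49 above WKY-air (SE 0.16, limma adjusted p = 0.119), in a comparison that uses the same WKY-air arrays.

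The Ciita call was lost without any 1 of the 4 WKY-DE arrays or without WKY-air replicates 2 or 4, with adjusted p between 0.0594 and 0.0878 and log2 changes between 0.63 and 0.79. It was also lost with quantile normalization, with the WKY-DE and WKY-air arrays alone and with a replicate block. Its log2 change stayed between 0.59 and 0.85 under all alternatives run. Of the class II chains and Cd74, 0 probe sets passed the test in WKY-DE against WKY-air. Cd74 gave −0.12 (SE 0.13), RT1-Da −0.28 (SE 0.18), RT1-Ba 0.51 (SE 0.26) on 1370822_at and −0.57 (SE 0.42) on 1377334_at, RT1-Bb 0.75 (SE 0.40) on 1371065_at and 0.03 (SE 0.54) on 1371033_at, and RT1-Db1 0.45 (SE 0.38) on 1370382_at and 0.05 (SE 0.31) on 1370383_s_at. Of these 8 probe sets, 5 had positive and 3 negative values, and WKY-DE lay wholly above WKY-air on RT1-Bb 1371065_at. Marker sums of B and T lymphocytes were 715 to 875 in WKY-DE, against 522 to 588 in WKY-air, without overlap. Of 10 lymphocyte probe sets 1 was called, Cd3g of the T cell receptor complex (log2 change 1.31, SE 0.28, limma adjusted p = 0.0346), beside 1.88% of all. Its partner chains averaged 44.2 (Cd3d) and 33.1 (Cd3e) in WKY-DE, against 41.7 and 39.7 in WKY-air. The median log2 change of the 10 probe sets was 0.48. In SH rats the lymphocyte sums were 586 to 737 in SH-DE, against 456 to 951 in SH-air. Macrophage and dendritic cell sums ran the other way in WKY rats, 5080 to 5992 in WKY-DE, against 6341 to 7205 in WKY-air, with 0 of 13 probe sets called. The part of these markers in the Ciita value was not tested.

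**Figure D4:**
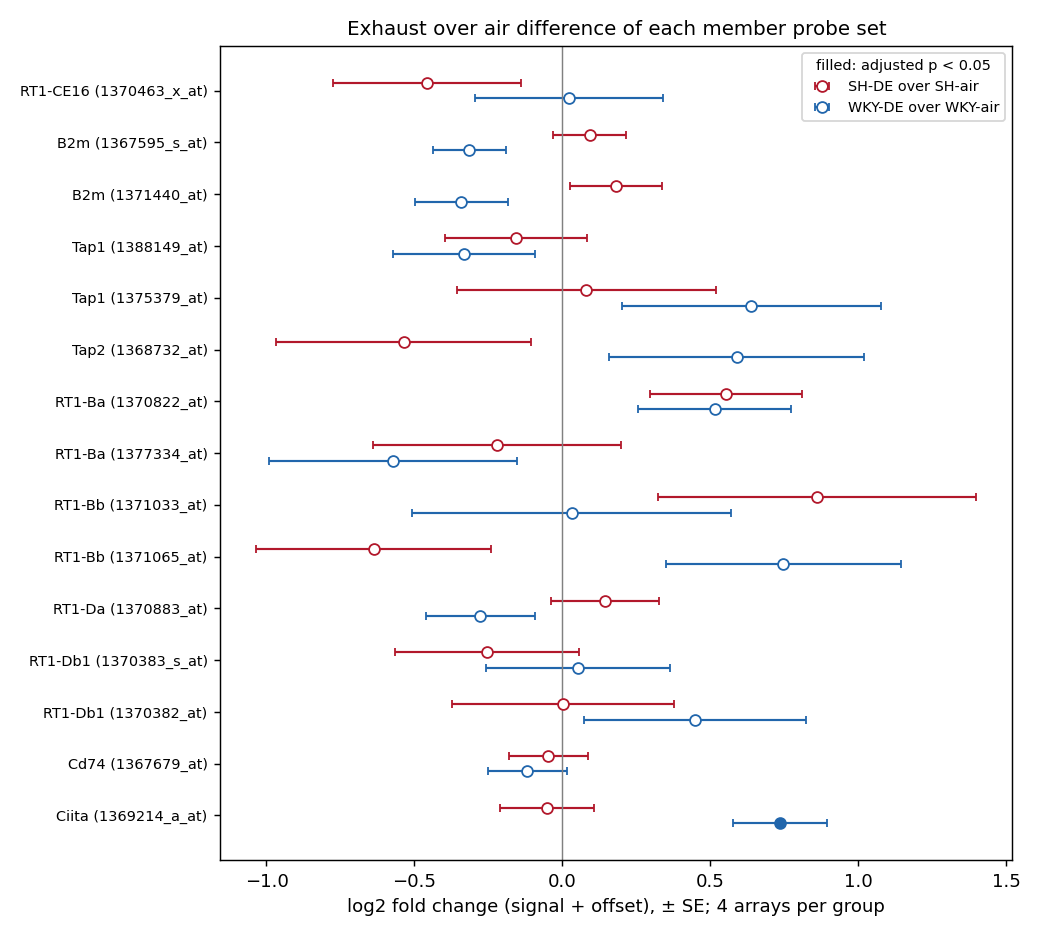
Log2 change of DE over air (± SE, 4 arrays per group) for each member probe set in SH and in WKY rats, with filled points for an adjusted p under 0.05. Ciita in WKY rats is the only filled point, and no SH value is filled.

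In SH-DE against SH-air 0 of 15 member probe sets and 0% of all probe sets were called by limma, with 977 of 15866 at an unadjusted p under 0.05. Among the members this level was reached by 1 probe set, RT1-Ba 1370822_at (log2 change 0.55, SE 0.26, limma adjusted p = 0.802). The interaction called 0 members and 0.0063% of all probe sets, with 1976 at an unadjusted p under 0.05. The probe set of the members with the lowest p there was that of Ciita.

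Other genes of the class I route were measured on 37 probe sets of 23 genes. In SH-air against WKY-air they had a median log2 change of −0.08. Over all probe sets 1.36% were called higher and 1.79% lower, and of the 37 probe sets, 1 was higher and 5 were lower. Of these 6, 4 were RT1-CE5, and RT1-N2, given above, was not on this list. The others were RT1-A3, a class I gene, which was higher (1371213_at, 239 ± 19.0 in SH-air, against 163 ± 21.1 in WKY-air, SD, n = 4 each, log2 change 0.51, limma adjusted p = 0.03), and Psmb10, an immunoproteasome subunit, which was lower (308 ± 20.1 in SH-air, against 487 ± 116 in WKY-air, log2 change −0.61, limma adjusted p = 0.0346). The remaining immunoproteasome subunits gave 0.19 for Psmb8 (SE 0.15) and −0.39 for Psmb9 (SE 0.21), and Tapbp, the tapasin that links class I molecules to the transporter, gave 0.61 (SE 0.17, limma adjusted p = 0.0617). In SH-DE against WKY-DE the 2 called probe sets were both RT1-CE5, beside 0.813% of all probe sets. In either exposure comparison 0 of 37 were called, beside 1.88% of all in WKY rats and 0% in SH rats.

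Other genes of the class II route were measured on 22 probe sets of 17 genes. In SH-air against WKY-air, SH-DE against WKY-DE and WKY-DE against WKY-air 1 was called each, beside 3.15%, 0.813% and 1.88% of all probe sets. Ctss, the cathepsin that trims the invariant chain, averaged 257 ± 32.5 in SH-air, against 473 ± 90.3 in WKY-air (log2 change −0.83, SE 0.15, limma adjusted p = 0.0106). It was 343 ± 34.7 in SH-DE and 325 ± 55.7 in WKY-DE (log2 change 0.08, SE 0.15). RT1-DMb, the β chain of the molecule that loads class II peptides, averaged 851 ± 102 in SH-DE and 1327 ± 150 in WKY-DE (log2 change −0.63, SE 0.14, limma adjusted p = 0.0495), while its partner RT1-DMa gave −0.26 (SE 0.22). Ctsb, another lysosomal protease, averaged 3695 ± 324 in WKY-DE and 5165 ± 354 in WKY-air (log2 change −0.48, SE 0.10, limma adjusted p = 0.0353). Macrophages also express Ctss and Ctsb, and macrophage and dendritic cell sums were 5097 to 6462 in SH-air, against 6341 to 7205 in WKY-air, with 1 of 13 probe sets called, Ctss itself. The part of these cells was not tested.

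Of 15 probe sets of 11 genes that carry or limit the interferon signal, which induces MHC genes, 3 were called in SH-air against WKY-air. Over all probe sets 3.15% were called there. Ifngr1, a chain of the interferon-γ receptor, averaged 1093 ± 141 in SH-air, against 1644 ± 48.7 in WKY-air (log2 change −0.59, SE 0.11, limma adjusted p = 0.0101). Irf9, part of the transcription factor below the type I interferon receptor, averaged 207 ± 34.0 in SH-air, against 314 ± 37.0 in WKY-air (log2 change −0.57, SE 0.13, limma adjusted p = 0.03). Socs1, a feedback inhibitor of this signal, was dim and higher on 1371252_at, 39.8 ± 17.4 in SH-air, against 13.97 ± 4.52 in WKY-air (log2 change 0.86, SE 0.22, limma adjusted p = 0.0477), and gave −0.20 (SE 0.30) on its other probe set. Irf1, an interferon-induced activator of MHC class I genes, gave −0.03 (SE 0.13). In the other comparisons 0 of 15 were called, beside at most 1.88% of all probe sets.

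Likeness between probe sets was measured by Pearson's r of the deviations from group means over the 16 arrays. The nearest genes were Usp47, Slco3a1 and Gatad1 for RT1-CE16 (r = 0.897, 0.886 and 0.878), Anapc13, Cand2 and Tbl3 for Cd74 (r = 0.862, 0.857 and 0.847), and Apba1, Tmem138 and Cyp26a1 for Ciita (r = 0.917, 0.886 and 0.886). Members were left out of this search, so none could be named, and the names depended on single arrays. Without SH-DE replicate 3 the nearest were Ptprs, Prmt6 and Usp47 for RT1-CE16 (r = 0.884, 0.861 and 0.832), and 2 of 3 names for Cd74 and 1 of 3 for Ciita were shared with the first lists. Among pairs of members the strongest was B2m (1371440_at) with RT1-Ba (1377334_at), at r = −0.813, and it was −0.504 without WKY-DE replicate 4, the array with the low B2m and high RT1-Ba signal. The 2 probe sets of B2m gave −0.06, and 0.405 without that array. Arrays of 1 scaling and a choice among many genes underlie these values, which are descriptions.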

How the data were processed

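RNA from the left ventricles of 16 rats had been measured on Rat 230A arrays. The deposited values are linear signal intensities, 1 per probe set and array, which the authors' sample records credit to MAS5 (version not given), and each array was found to have a trimmed mean of 500.2. The paper describes RMA for its own lists. Here 57 control probe sets were left out and log2(intensity + 16.1), the offset being the 10th percentile of all values, was fitted for 15866 probe sets with limma 3.58.1 in R 4.3.3 as 4 group means. p-values were adjusted by Benjamini-Hochberg over all 15866. Calls needed 0.05 as the upper limit of the adjusted p and 0.01 as that of the unadjusted p. All log2 changes (log2 fold changes) are on the scale with the offset, which understates changes of dim probe sets. The number of arrays limits the precision. Names came from the platform annotation. Named were all member probe sets, called genes and up to 4 of lowest p per list, and the 3 genes nearest to a member. The members and lists were chosen with earlier results of these data known. The 5 comparisons, each of which shares arrays with others, were repeated under the alternatives of the closing section. The fit was tested on simulated data. Probe sequences were not used here.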

Additional observations from a re-analysis of the deposited data

Results flagged for a closer look

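In 60 groups of 4 arrays (15 member probe sets in 4 groups), 3 groups held an array set apart from the others by a gap test at the 95% level, which chance alone sets off in about 1 in 20 groups. RT1-CE16 in SH-DE replicate 3 was 243, against 702 to 797 in the other SH-DE arrays, and this array also stood apart on other strain-dependent genes. B2m (1367595_s_at) in SH-air replicate 1 was 13700, against 17500 to 18400 in the other SH-air arrays. Tap1 (1388149_at) in SH-DE replicate 1 was 63.7, against 139 to 159 in the other SH-DE arrays.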

How the results depend on the processing

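The member probe sets called in SH-air against WKY-air, 5 with all arrays, numbered 2 at an adjusted p under 0.01, 8 with an intensity trend and robust moderation, 3 with only the compared groups in the fit and 3 with a replicate block, and from 2 to 6 when 1 array was left out. Those in SH-DE against WKY-DE, 2 with all arrays, numbered 1 at an adjusted p under 0.01, 0 with only the compared groups, 4 without the dimmest 40% of probe sets, 4 with the trend, 4 with array weights, 4 without both SH-DE replicate 3 and WKY-DE replicate 4 (chosen after seeing the data), and from 1 to 3 when 1 array was left out. The single call in WKY-DE against WKY-air, Ciita, became 0 at an adjusted p under 0.01, with quantile normalization, only the compared groups, the replicate block or without both arrays, and 0 or 1 when 1 array was left out. Counts of 0 in SH-DE against SH-air and in the interaction stayed at 0 under every alternative run, which included other offsets. Replicate numbers did not pair the arrays, since same-numbered deviations correlated between −0.0961 and 0.0533. The cause of these changes was not tested.

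No called value changed direction. In the strain comparisons 5 values that had not passed the test changed sign. RT1-Bb (1371065_at) in SH-DE against WKY-DE was −0.0627 with an offset of 1, −0.21 with array weights and −0.11 without both arrays, and leaving out 1 array gave it from −0.20 (without SH-DE replicate 1) to 0.41. In the same comparison B2m (1371440_at) ran from −0.23 to 0.0334 when 1 array was left out and was −0.28 without both arrays. In SH-air against WKY-air, leaving out 1 array gave RT1-Db1 (1370383_s_at) from −0.25 to 0.37, Tap1 (1375379_at) from −0.21 to 0.48 and Tap2 from −0.0939 to 0.48.

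Signs in the exposure comparisons were less stable. Of the 15 member values, 4 changed sign in WKY-DE against WKY-air, 9 in SH-DE against SH-air and 3 in the interaction under at least 1 alternative, and 0 of these had been called. In WKY-DE against WKY-air, quantile normalization gave Cd74 0.0751, RT1-Db1 (1370383_s_at) −0.0724, RT1-CE16 −0.20 and RT1-Bb (1371033_at) −0.0397. RT1-Bb was −0.0453 with array weights and −0.0435 without both arrays, where RT1-CE16 was −0.11. Leaving out 1 array gave RT1-Db1 from −0.0585 to 0.15, RT1-CE16 from −0.13 to 0.22 and RT1-Bb from −0.0526 to 0.11. In SH-DE against SH-air it gave B2m (1367595_s_at) from −0.0036 to 0.14 and Ciita from −0.15 to 0.0048. The correlations between probe sets without SH-DE replicate 3 or WKY-DE replicate 4 were also chosen after seeing the data.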
